A study of Homo sapiens with 17 samples.

Results

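The 10 genes described here, INSL4, AVPI1, NR4A1, NR4A2, NR4A3, CREM, PPARGC1A, NEDD9, FOS and EGR1, are genes that the transcription factor CREB is known to induce or that have been linked to the LKB1 kinase pathway that restrains CREB. They were chosen by name, with earlier results of these data known. Counts among them, set below beside shares of all genes, are thus descriptions and no independent test of the list. Each was read from the 1 probe set that the array annotation pairs with that symbol alone. They are 10 of the 17958 genes measured. With wild-type LKB1 in A549 cells the mean of every one of them lay below the mean of both controls, and INSL4, AVPI1 and NR4A1 fell against each control. In H2122 cells 9 of the 10 lay lower, none of the 9 passed the test fitted over both lines, and NEDD9 rose. Fitted alone, H2122 gave 4 of the 10 called lower against pBABE and 1 against K78I (5.6% and 3.71% of all genes called in either direction). A549 fitted alone gave 1 called lower against each control (3.05% and 2.27%).

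LKB1, the product of STK11, phosphorylates and switches on the salt-inducible kinases (SIK) and other kinases of the AMPK family. SIKs phosphorylate the CRTC coactivators and hold them in the cytoplasm. Without LKB1 or SIK activity, CRTCs enter the nucleus and join CREB at cyclic AMP response elements (CRE), and this raises CREB targets such as the NR4A receptors, PPARGC1A and CREM. Lung adenocarcinomas often lose STK11, and INSL4 and NEDD9 are among the genes reported to be raised in such tumours. FOS and EGR1 are also immediate early genes of the serum and ERK pathways, so CREB is not their only known input.

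RNA was measured on 17 arrays of 2 established human lung adenocarcinoma lines, A549 and H2122, neither of which makes functional LKB1 of its own. Each line had been stably transduced with the retroviral vector pBABE carrying wild-type LKB1 (called LKB1 below), the kinase-dead mutant K78I, or nothing, and all groups had been kept in 1 µg/mL puromycin for 2 weeks and grown in 5% serum without antibiotics. There were 3 arrays in each group, except 2 for H2122 with pBABE. Levels are given as log2 values, so a difference of 1 is a 2-fold difference. Whether the replicates were separate cultures is not stated in the labels; the p-values thus reflect the spread from array to array, which may be technical, and the small number of arrays limits the precision.

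STK11, the check of the labels, did not follow them everywhere. In H2122 its level was 6.33 and 6.22 with pBABE, 11.20 to 11.35 with LKB1 and 11.26 to 11.31 with K78I. In A549 it was 9.42, 10.23 and 9.62 with LKB1. The library labelled A549 pBABE replicate 3 stood at 10.52, against 6.88 and 7.38 on the other pBABE arrays, and the library labelled A549 K78I replicate 2 stood at 7.14, against 10.54 and 10.42 on the other K78I arrays. For 3 H2122 arrays (pBABE replicate 2, LKB1 replicate 3 and K78I replicate 3) title and source name disagree on the construct, and titles were used. The STK11 level of 6.22 on pBABE replicate 2 goes with its title and not with another construct. LKB1 replicate 3 and K78I replicate 3 both stood at 11.26, a level seen with LKB1 and K78I alike.

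A further set of 3 control arrays had low levels of cell cycle genes: A549 pBABE replicate 1, A549 K78I replicate 2 and H2122 pBABE replicate 2. The mean of 18 cell cycle genes lay 0.35, 0.83 and 1.43 below the mean of the line on these arrays, while on the other 14 arrays it lay between −0.09 and 0.34 of it. Counts of called genes are therefore given with and without these 3 arrays. The keratins KRT8 and KRT18 were high in both lines, with medians of 11.65 to 13.02, whereas KRT19 and EPCAM were high in H2122 (medians of 10.70 and 11.22) and low in A549 (4.85 and 6.79). E-cadherin, encoded by CDH1, had medians of 10.41 in A549 and 10.47 in H2122, and in A549 it was called lower with LKB1 against pBABE and K78I, at −1.22 and −1.13 (adjusted p = 0.0268 and 0.0432). The lung lineage markers NKX2-1, NAPSA, SFTPB and SFTPC stayed at 5.95 or lower on every array, and 8 markers of leukocytes, endothelium and fibroblasts had medians of 2.62 to 5.14, the highest that of the endothelial marker PECAM1 in H2122. PECAM1 reached 6.32 there and was called lower with LKB1 against pBABE (−1.17, adjusted p = 0.00458), and the fibroblast marker PDGFRA reached 5.58 in A549 and was called higher with LKB1 against pBABE (0.87, adjusted p = 0.0463). The part of these markers in the results was not tested.

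The promoter stretches below are shown because these genes are grouped as CREB targets and moved together in A549. They come from RefSeq (GRCh38.p14), whose promoter windows run from 250 bases before to 50 bases after a transcript start and were found for 9 of the 10 genes, the exception being NR4A2. The full CRE searched was TGACGTCA, and the CRE half-site was TGACG, on either strand (CGTCA on the other strand). Every full CRE also holds the half-site on each strand. Capitals mark these letters, and each stretch runs 5′ to 3′ on the strand of its gene, upstream of the transcript start.
AVPI1: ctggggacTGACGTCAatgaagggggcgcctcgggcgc
CREM: gagctgcacatTGACGTCAgctccgagtca
INSL4: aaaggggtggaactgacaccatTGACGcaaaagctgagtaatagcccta
NR4A3: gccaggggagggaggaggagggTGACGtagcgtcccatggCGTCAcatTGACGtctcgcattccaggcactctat
PPARGC1A: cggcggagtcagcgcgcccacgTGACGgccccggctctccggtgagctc
FOS: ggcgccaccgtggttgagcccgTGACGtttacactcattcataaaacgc
EGR1: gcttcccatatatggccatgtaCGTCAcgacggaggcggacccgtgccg
The AVPI1 stretch is chr10:97687454-97687491 on the minus strand, and that of PPARGC1A is chr4:24472998-24473046, also on the minus strand. The others lie on the plus strand: CREM at chr10:35195841-35195870, INSL4 at chr9:5231335-5231383, NR4A3 at chr9:99821754-99821828, FOS at chr14:75278742-75278790 and EGR1 at chr5:138465391-138465439.

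A full CRE was present in 2 of the 9 genes, AVPI1 and CREM, against 2.2487% of the 27305 genes in the table and 1.8482% of its 35116 windows of the same length. CREM has 7 windows in the table and 2 of them hold it, and the stretch shown is from 1 of these. A half-site was present in 7 of the 9 genes, all but NR4A1 and NEDD9, against 28.4234% of genes and 24.5529% of windows. PPARGC1A has 2 windows in the table, and only 1 of them, the source of the stretch shown, holds a half-site. Which starts of CREM and PPARGC1A were used in these cells was not tested. NR4A3 had 4 half-sites upstream of its start, of which the stretch holds 3, and EGR1 had 2. The CArG box, the site bound by serum response factor, was found within these windows in EGR1 only, against 1.6041% of genes. Bases more than 250 before a start were not searched, so a site further upstream of FOS or another gene would be missed. Letters in a promoter window are a description of the sequence and show no binding.

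**Figure D1:**
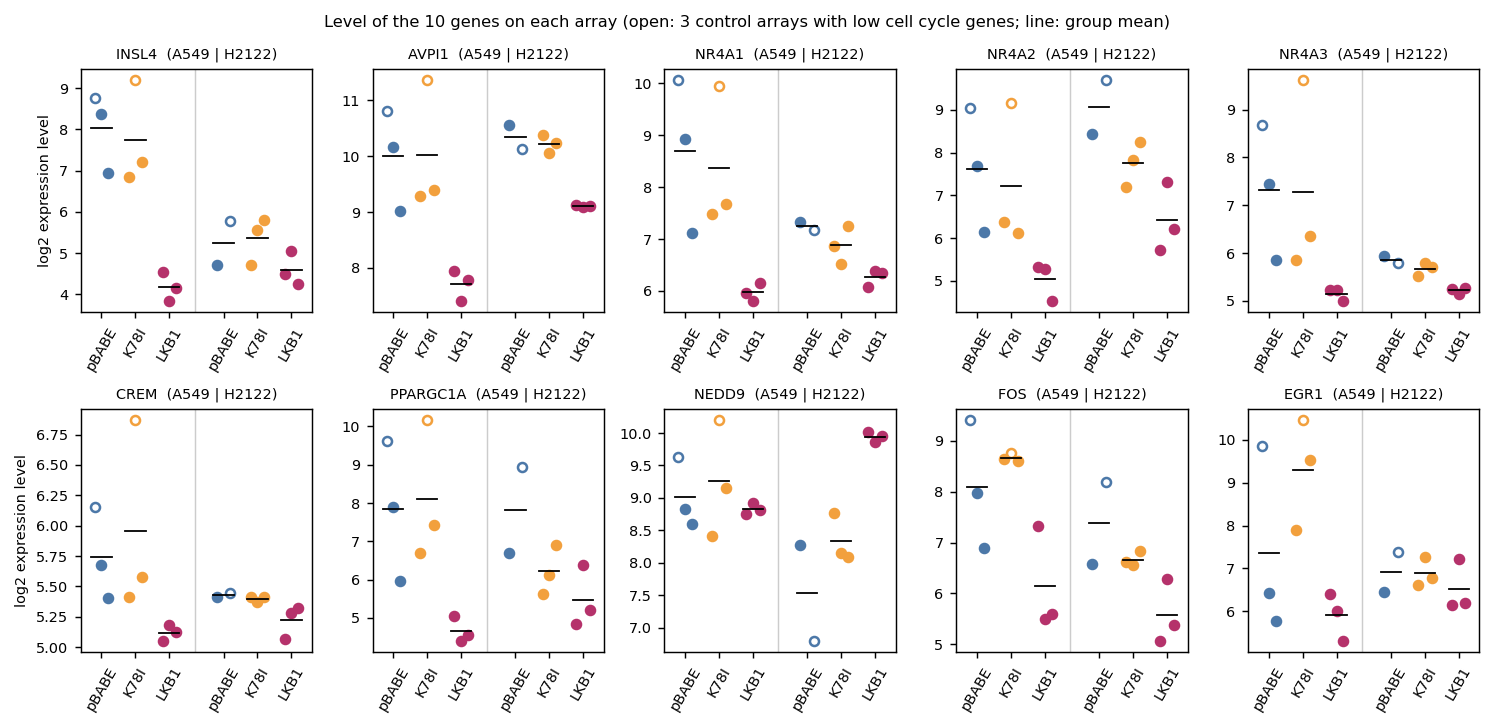
Log2 expression level of each of the 10 genes on each array (y axis, a separate scale for each gene) in A549 (left of the grey line) and H2122 (right), by construct; points are arrays, the horizontal bar is the group mean and open points are the 3 controls low in cell cycle genes. INSL4 lies at 3.84 to 4.54 on the A549 LKB1 arrays and at 6.85 or above on every A549 control, and NEDD9 lies at 9.87 to 10.01 on the H2122 LKB1 arrays and at 8.76 or below on the H2122 controls.

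The first question is whether LKB1 lowered these genes in A549 relative to the empty vector. All 10 differences were negative, with a median of −2.23 on the log2 scale against −0.03 over all genes tested. The test called 3 of the 10 lower and none higher; over all genes it called 1.72% lower and 3.78% higher. Every LKB1 array lay below every pBABE array for 7 of the 10, against 13.8% of all genes. Since these are bulk samples, fewer cells with a high level and less RNA per cell cannot be told apart. Without the 3 low cell cycle arrays the test called 7 of the 10 lower (2.7% of all genes) and the median was −1.69.

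Against the kinase-dead K78I, LKB1 in A549 again gave 10 negative differences, with a median of −2.35 against −0.01 over all genes. The test called 6 of the 10 lower and none higher, where over all genes it called 1.69% lower and 3.56% higher. Every LKB1 array lay below every K78I array for 9 of the 10, all but NEDD9, against 10.4% of all genes. Without the 3 arrays 6 of the 10 were called lower (1.85% of all genes), with a median of −1.62. With H2122 grouped by source name, which leaves the A549 differences as they are and changes the shared spread, NR4A1, PPARGC1A and FOS were not called (adjusted p = 0.0640, 0.0919 and 0.0800). The count fell to 2 without K78I replicate 2, LKB1 replicate 2 or LKB1 replicate 3, each left out alone.

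In H2122 the same comparisons gave smaller shifts in most genes. Against pBABE 9 differences were negative, with a median of −0.82 against −0.05 over all genes, and none was called, whereas NEDD9 was called higher; over all genes the test called 1.6% lower and 4.17% higher. Every LKB1 array lay below both pBABE arrays for 7 of the 10 (18.5% of all genes) and above both for 1 (14.2%). Against K78I the median was −0.68 against −0.02 over all genes, none was called lower (0.908% of all genes) and NEDD9 was called higher (2.98%). There the LKB1 arrays lay below all 3 K78I arrays for 5 of the 10 (17.7%) and above for 1 (13.3%). These tests share 1 spread per gene with A549. With each line fitted alone, limma called AVPI1, NR4A1, NR4A2 and NR4A3 lower against pBABE (adjusted p between 0.00350 and 0.0267). Against K78I it called AVPI1 lower (adjusted p = 0.00588). NEDD9 was called higher against both, and 5.6% and 3.71% of all genes were called in either direction.

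Leaving out the 3 arrays added 1 call in H2122, that of AVPI1, which was lower against pBABE and against K78I. The share of all genes called lower was then 1.48% and 4.1%, and the share called higher was 4.13% and 5.95%. Of the H2122 pBABE arrays only replicate 1 remains in that fit, and its spread is assumed to be that of the other groups. At an unadjusted p under 0.05 with all arrays, limma found 5 of the 10 against pBABE, 4 of them lower, and 2 of the 10 against K78I, 1 of them lower, in H2122, where 17.3% and 15.9% of all genes were under 0.05 in either direction.

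**Figure D2:**
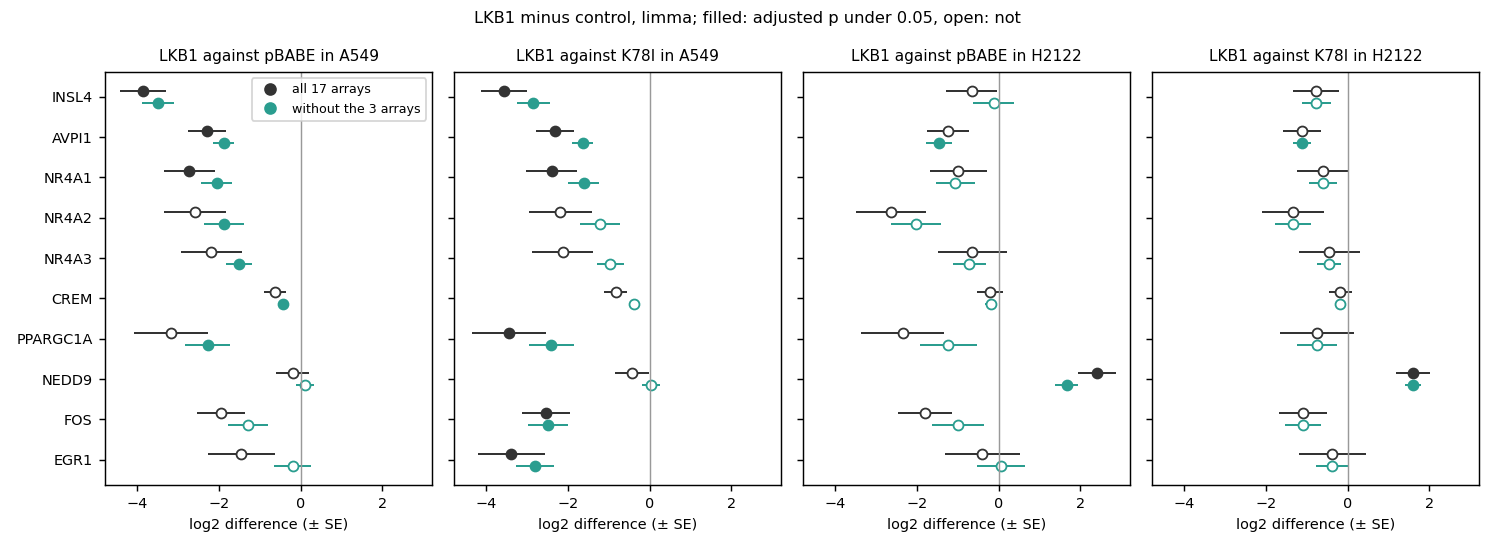
Log2 difference of LKB1 from each control (x axis, limma estimate ± SE) for the 10 genes in A549 (2 left panels) and H2122 (2 right panels), with all 17 arrays (dark) and without the 3 low cell cycle controls (green); filled points had an adjusted p under 0.05. INSL4, AVPI1 and NR4A1 are filled in both A549 panels with either set of arrays, and NEDD9 is the only gene on the positive side with a filled point, in H2122.

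INSL4 encodes a small secreted hormone of the insulin and relaxin family, best known from the early placenta. On the A549 arrays it stood at 8.77, 8.38 and 6.95 with pBABE, at 6.85, 9.19 and 7.21 with K78I, and at 4.54, 3.84 and 4.14 with LKB1. The LKB1 arrays lay more than 2 units below the lowest control array, and the controls themselves spread over more than 2 units. INSL4 fell by 3.86 against pBABE (SE 0.56; 14.5-fold; 95% interval −5.05 to −2.66; adjusted p = 0.000762), the largest fall among the 10 genes in A549. Against K78I it fell by 3.57 (SE 0.56; adjusted p = 0.00150), and without the 3 arrays the differences were −3.49 and −2.85 (adjusted p = 0.000330 and 0.00143). Both calls held in all 29 alternatives, including each array left out in turn.

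The H2122 arrays held INSL4 at 4.71 and 5.78 with pBABE, 4.71, 5.56 and 5.80 with K78I, and 4.49, 5.04 and 4.24 with LKB1. The groups overlapped, and the H2122 controls lay below every A549 control. The differences were −0.65 ± 0.63 (SE) against pBABE and −0.77 ± 0.56 against K78I (adjusted p = 0.680 and 0.583), with 95% intervals from −1.99 to 0.68 and from −1.96 to 0.43.

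AVPI1 is named for its induction by arginine vasopressin, a hormone that signals through cyclic AMP in the kidney; the function of its protein is poorly known. Its A549 levels were 10.81, 10.17 and 9.01 with pBABE, 9.30, 11.36 and 9.39 with K78I, and 7.94, 7.41 and 7.78 with LKB1. All LKB1 arrays lay below all controls. AVPI1 fell by 2.29 against pBABE (SE 0.46; 4.88-fold; adjusted p = 0.00814) and by 2.31 against K78I (SE 0.46; adjusted p = 0.00896). With the 3 low cell cycle arrays left out the differences were −1.88 and −1.63, both called (adjusted p = 0.000874 and 0.00271). Of the 29 alternatives, 28 kept each call, and the 1 that did not was the fit of each line alone (adjusted p = 0.0753 and 0.0853).

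In H2122 AVPI1 was at 10.56 and 10.13 with pBABE, 10.38, 10.06 and 10.24 with K78I, and 9.13, 9.09 and 9.11 with LKB1. The 3 LKB1 arrays were within 0.04 of each other and lay below every control. The differences, −1.23 ± 0.52 (SE) against pBABE and −1.12 ± 0.46 against K78I, did not pass the test over all groups (adjusted p = 0.223 and 0.239). They passed without the 3 low cell cycle arrays, at −1.45 and −1.12 (adjusted p = 0.0212 and 0.00932). All groups share 1 spread per gene, and the A549 controls of AVPI1 spread by an SD of 0.91 and 1.17 where the H2122 groups spread by 0.02 to 0.31.

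The NR4A genes encode orphan nuclear receptors that act as immediate early transcription factors. NR4A1 stood at 10.06, 8.94 and 7.11 with pBABE in A549, at 7.49, 9.95 and 7.68 with K78I, and at 5.96, 5.81 and 6.16 with LKB1. It fell by 2.73 against pBABE (SE 0.63; 6.62-fold; adjusted p = 0.0175) and fell by 2.40 against K78I (SE 0.63; adjusted p = 0.0381), with no overlap. Both calls held without the 3 arrays, at −2.05 and −1.61 (adjusted p = 0.00597 and 0.0279). Leaving out pBABE replicate 1 or 2, or any 1 of the A549 LKB1 arrays, lost the call against pBABE (adjusted p between 0.0554 and 0.0916), and the call against K78I was lost without any 1 of 11 of the 17 arrays (adjusted p between 0.0515 and 0.157, the highest without A549 K78I replicate 2).

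NR4A2 in A549 was at 9.04, 7.69 and 6.14 with pBABE, 6.39, 9.16 and 6.13 with K78I, and 5.32, 5.27 and 4.53 with LKB1. NR4A3 was at 8.68, 7.44 and 5.87 with pBABE, 5.85, 9.61 and 6.36 with K78I, and 5.22, 5.22 and 5.00 with LKB1. For both genes every LKB1 array was below every control, and the controls ranged over more than 3 units. The NR4A2 differences were −2.58 ± 0.77 (SE) against pBABE and −2.18 ± 0.77 against K78I (adjusted p = 0.0650 and 0.122). Those of NR4A3 were −2.18 ± 0.75 and −2.13 ± 0.75 (adjusted p = 0.119 and 0.125). Leaving out the 3 arrays, NR4A2 fell by 1.87 and NR4A3 fell by 1.50 against pBABE (adjusted p = 0.0357 and 0.0131), and neither passed against K78I (adjusted p = 0.208 and 0.118).

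In H2122 NR4A2 was the NR4A gene with the largest differences from both controls. Its levels were 8.45 and 9.69 with pBABE, 7.20, 7.83 and 8.25 with K78I, and 5.73, 7.33 and 6.23 with LKB1. The LKB1 arrays lay below both pBABE arrays and overlapped with K78I, and the differences were −2.64 ± 0.86 (SE) and −1.33 ± 0.77 (adjusted p = 0.0947 and 0.445). NR4A1 was at 7.33 and 7.18, then 6.87, 6.52 and 7.25, and then 6.08, 6.38 and 6.35 in the same order of groups. NR4A3 was at 5.94 and 5.79, then 5.51, 5.80 and 5.70, and then 5.25, 5.14 and 5.28. Neither NR4A1 nor NR4A3 overlapped between LKB1 and either control, with differences from −0.98 to −0.45 and adjusted p between 0.543 and 0.867.

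CREM encodes cyclic AMP responsive activators and, from an internal promoter, the repressor ICER, a feedback inhibitor of CREB. Its levels were low on this array. In A549 they were 6.15, 5.67 and 5.41 with pBABE, 5.41, 6.87 and 5.58 with K78I, and 5.05, 5.18 and 5.12 with LKB1. The groups did not overlap, and the differences were −0.63 ± 0.28 (SE) and −0.83 ± 0.28 (adjusted p = 0.255 and 0.106). When the 3 arrays were left out, CREM fell by 0.42 against pBABE (adjusted p = 0.0435) and the difference from K78I was −0.38 (adjusted p = 0.0880).

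In H2122 CREM was at 5.41 and 5.45 with pBABE, 5.41, 5.37 and 5.41 with K78I, and 5.07, 5.28 and 5.32 with LKB1. The LKB1 arrays were again the lowest, by less than 0.1 at the closest point. The differences of −0.21 and −0.18 did not pass (adjusted p = 0.825 and 0.856).

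PPARGC1A encodes the coactivator PGC-1α, which drives mitochondrial biogenesis and, in liver, gluconeogenesis. Its A549 levels were 9.62, 7.91 and 5.97 with pBABE, 6.70, 10.16 and 7.44 with K78I, and 5.06, 4.40 and 4.55 with LKB1. The LKB1 arrays lay below all controls. The difference from pBABE was −3.16 ± 0.91 (SE; adjusted p = 0.0569), and against K78I PPARGC1A fell by 3.43 (SE 0.91; 10.8-fold; adjusted p = 0.0411). Without the 3 arrays the differences were −2.27 and −2.40, both called (adjusted p = 0.0260 and 0.0251). The call against K78I with all arrays was lost without any 1 of 10 of the 17 arrays (adjusted p between 0.0532 and 0.179, the highest without A549 K78I replicate 2).

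In H2122 PPARGC1A was at 6.70 and 8.95 with pBABE, 5.63, 6.12 and 6.90 with K78I, and 4.84, 6.39 and 5.19 with LKB1. The LKB1 arrays lay below both pBABE arrays and overlapped with K78I. The differences were −2.35 ± 1.02 (SE) and −0.75 ± 0.91 (adjusted p = 0.238 and 0.798). Without H2122 pBABE replicate 2, the highest of these arrays, and the other low cell cycle arrays the difference from pBABE was −1.23 (adjusted p = 0.346).

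NEDD9, a Cas-family scaffold protein of focal adhesions linked to migration and metastasis, did not follow the other genes. In A549 its levels were 9.62, 8.83 and 8.60 with pBABE, 8.41, 10.20 and 9.16 with K78I, and 8.75, 8.92 and 8.81 with LKB1. The groups overlapped, and the differences of −0.19 ± 0.41 (SE) and −0.43 ± 0.41 did not pass (adjusted p = 0.882 and 0.635). They turned, without the 3 arrays, to 0.11 and 0.04, with 95% intervals from −0.36 to 0.58 and from −0.43 to 0.52.

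In H2122 NEDD9 stood at 8.28 and 6.80 with pBABE, at 8.76, 8.15 and 8.09 with K78I, and at 10.01, 9.87 and 9.95 with LKB1. All LKB1 arrays lay above all controls. NEDD9 rose by 2.41 against pBABE (SE 0.46; 5.30-fold; 95% interval 1.43 to 3.38; adjusted p = 0.00507) and by 1.61 against K78I (SE 0.41; 3.05-fold; adjusted p = 0.0397). Once the 3 arrays were left out it rose by 1.67 and 1.61 (adjusted p = 0.00491 and 0.000463). This result depends on the titles and on single arrays. Grouped by source name, the differences were 0.71 and −0.06. That grouping moves pBABE replicate 2, with STK11 at 6.22, to another construct. Without pBABE replicate 2 alone, the difference from pBABE was 1.67 (adjusted p = 0.104), and the call against K78I was lost without any 1 of 10 of the 17 arrays, among them each H2122 LKB1 array and K78I replicates 2 and 3 (adjusted p between 0.0517 and 0.175).

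FOS, a subunit of the AP-1 transcription factor, stood at 9.40, 7.97 and 6.90 with pBABE in A549, at 8.64, 8.77 and 8.60 with K78I, and at 7.33, 5.49 and 5.59 with LKB1. LKB1 replicate 1 overlapped with pBABE replicate 3, and the difference from pBABE was −1.95 ± 0.59 (SE; adjusted p = 0.0682). Against K78I, where the groups did not overlap, FOS fell by 2.53 (SE 0.59; 5.78-fold; adjusted p = 0.0202), and fell by 2.48 without the 3 arrays (adjusted p = 0.0115). The call was lost without K78I replicate 2 or LKB1 replicate 2 or 3 alone (adjusted p between 0.0645 and 0.102). The K78I arrays of FOS were within 0.17 of each other, and K78I replicate 2 did not stand apart there.

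The H2122 levels of FOS were 6.57 and 8.19 with pBABE, 6.61, 6.56 and 6.83 with K78I, and 5.07, 6.29 and 5.38 with LKB1. LKB1 lay below both controls without overlap. The differences of −1.80 ± 0.65 (SE) and −1.09 ± 0.59 did not pass (adjusted p = 0.143 and 0.403).

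EGR1, a zinc finger transcription factor induced by ERK signalling, was the gene whose A549 control groups differed most in their means. It stood at 9.86, 6.43 and 5.78 with pBABE, at 7.90, 10.45 and 9.52 with K78I, and at 6.40, 6.001 and 5.31 with LKB1. The LKB1 arrays overlapped with pBABE and not with K78I. EGR1 fell by 3.38 against K78I (SE 0.83; 10.4-fold; adjusted p = 0.0266), and the difference from pBABE was −1.45 ± 0.83 (SE; adjusted p = 0.403). It fell by 2.80 against K78I without the 3 arrays (adjusted p = 0.00376), and the difference from pBABE was −0.20, with a 95% interval from −1.20 to 0.81. The call against K78I was lost without any 1 of the LKB1 arrays or K78I replicate 2 or 3 (adjusted p between 0.0541 and 0.123).

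In H2122 EGR1 was at 6.46 and 7.37 with pBABE, 6.62, 7.26 and 6.79 with K78I, and 6.15, 7.22 and 6.19 with LKB1. All groups overlapped, and the differences were −0.40 and −0.37 (adjusted p = 0.903 and 0.904).

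The controls were compared to ask whether kinase-dead LKB1 alone moved these genes. Between K78I and pBABE none of the 10 was called in either line, and limma called 0 of 17958 genes (0%) in A549 and 0 (0%) in H2122. At an unadjusted p under 0.05 it found 472 genes (2.63%) in A549 and 1260 (7.02%) in H2122. In H2122 the count over all genes rests on pBABE replicate 1: without that array limma called 1041 genes (5.8%), none of them among the 10. STK11 itself, higher by 5.00 with K78I in H2122, was not called by limma (unadjusted p = 9e-05, adjusted p = 0.167). An absence of calls there thus does not show an absence of differences. The median over the 10 was 0.11 in A549 and −0.16 in H2122. The largest difference in A549 was that of EGR1, at 1.94 ± 0.83 (SE; unadjusted p = 0.0334, adjusted p = 0.999), the only one of the 10 under 0.05 without adjustment with all arrays; in H2122 none was. Without the 3 arrays none of the 10 was called in either line; EGR1 was at 2.61 and FOS at 1.19 in A549 (unadjusted p = 0.000215 and 0.0477, adjusted p = 0.428 and 0.959). Intervals were wide: with all arrays, that of PPARGC1A in A549 ran from −1.67 to 2.21.

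The A549 comparisons also turn on the libraries whose STK11 level goes against the label. Without pBABE replicate 3 and K78I replicate 2, LKB1 against pBABE called 8 of the 10 lower, all but NEDD9 and EGR1 (4.15% of all genes), with a median of −2.84. LKB1 against K78I then called 4 lower, INSL4, AVPI1, NR4A1 and FOS (1.27%), with a median of −1.62. In that fit K78I against pBABE in A549 also gave calls: NR4A1 fell by 1.91 and NR4A3 by 1.95 (adjusted p = 0.0206 and 0.0165; 0.145% of all genes were called lower), and the median of the 10 was −1.35. The H2122 differences are the same in this fit, but the shared spread is smaller. AVPI1, NR4A1, NR4A2 and PPARGC1A were called lower against pBABE in limma's test (adjusted p between 0.00179 and 0.0416). AVPI1 was also called lower against K78I (adjusted p = 0.00249), and NEDD9 was called higher against both controls. Of all genes, 8.04% were called against pBABE and 5.75% against K78I in either direction.

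The arrays within a group were not alike, and in A549 the same arrays were high for all 10 genes. There the 2 highest arrays were K78I replicate 2 and pBABE replicate 1 for 10 of the 10 genes, with K78I replicate 2 the highest for 8. The mean of the 10 genes lay 2.23 above the mean of the line on K78I replicate 2 and 1.86 above it on pBABE replicate 1. These are the A549 arrays with low cell cycle genes. The next highest was pBABE replicate 2 at 0.60, and the LKB1 arrays were at −1.19, −1.59 and −1.64.

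The 3 A549 arrays with STK11 under 7.5, pBABE replicates 1 and 2 and K78I replicate 2, were those with the highest mean of the 10 genes. The remaining controls, with STK11 at 10.42 to 10.54, had means of −0.57 to 0.36, above every LKB1 array. The mean of 20 serum and ERK immediate early genes was also highest on K78I replicate 2 and pBABE replicate 1, with 1.14 and 0.48 over the line's mean. How far the cell cycle level, STK11 or this signal accounts for the level of the 10 genes was not tested.

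In H2122 the spread was narrower. The mean of the 10 genes was 0.20 and 0.69 with pBABE, −0.07, 0.09 and 0.29 with K78I, and −0.66, −0.04 and −0.51 with LKB1, relative to the mean of the line. The pBABE replicate 2 array, low in cell cycle genes, was the highest array for 5 genes, NR4A2, CREM, PPARGC1A, FOS and EGR1, and the lowest for NEDD9. LKB1 replicate 1 was the lowest array for 6 genes.

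**Figure D3:**
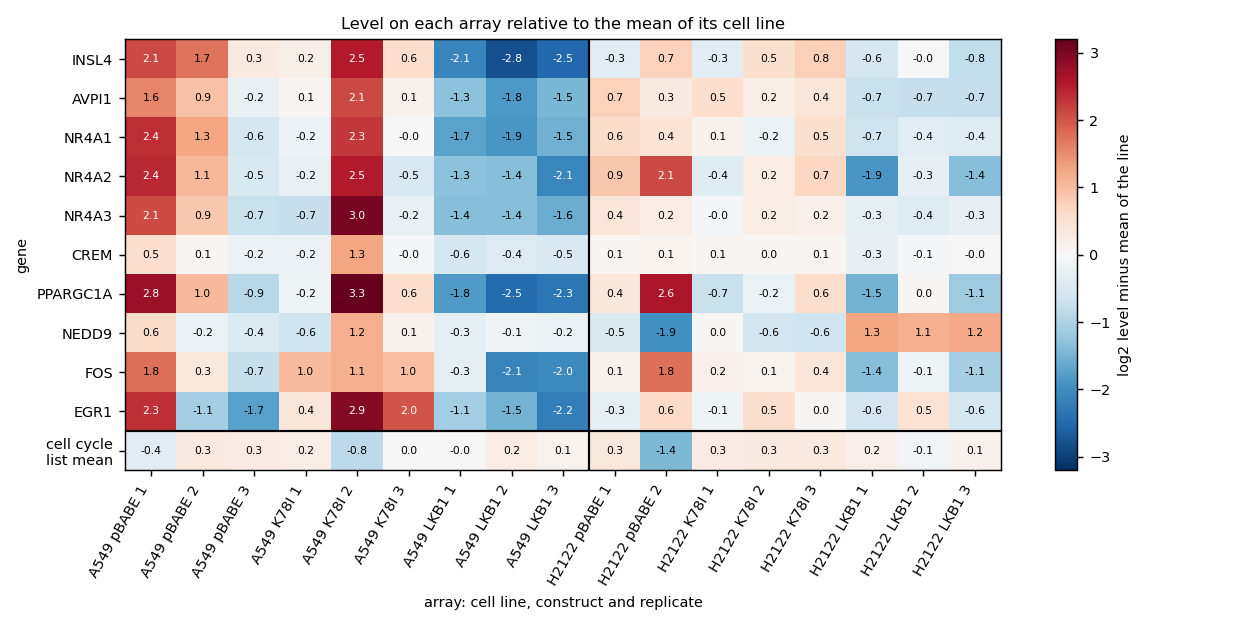
Log2 level of each gene on each array minus the mean of that gene over the arrays of the same line, for the 10 genes and, in the bottom row, the mean of 18 cell cycle genes; columns are arrays and the vertical line separates A549 from H2122. Within A549 the columns pBABE 1 and K78I 2 are the reddest for all 10 genes and are low in the cell cycle row (−0.35 and −0.83), and NEDD9 is the only gene above the mean of the line on all 3 H2122 LKB1 arrays.

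**Figure D4:**
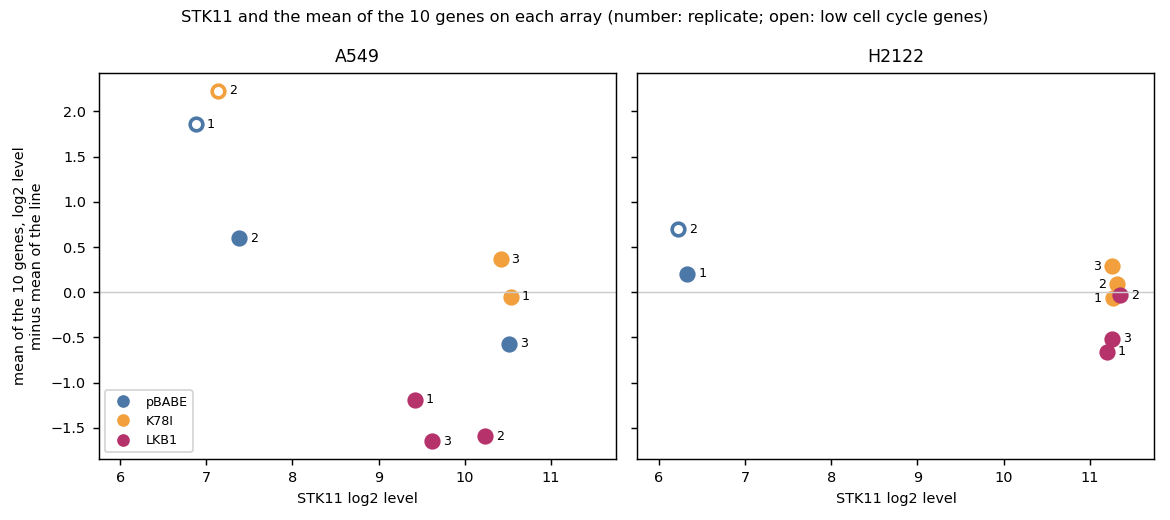
Mean of the 10 genes on each array relative to the mean of the line (y axis, log2) against the STK11 level of the array (x axis, log2) in A549 (left) and H2122 (right); points are arrays with their replicate number, coloured by construct, and open points are the arrays with low cell cycle genes. In A549 the 3 arrays with STK11 under 7.5 lie at 0.60 to 2.23 and the LKB1 arrays at −1.64 to −1.19, with the other 3 controls between them.

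Whether the response differed between the lines was tested as the difference of LKB1 from the mean of both controls in A549 minus the same in H2122. All 10 values were negative, with a median of −1.68 against 0.01 over all genes, and 2 were called, where 1.98% of all genes were called lower in A549 relative to H2122. INSL4 differed by −3.00 ± 0.70 (SE; adjusted p = 0.0278) and NEDD9 by −2.32 ± 0.51 (adjusted p = 0.0205). For INSL4 this was a larger fall in A549, and for NEDD9 a rise in H2122. INSL4 stood at only 4.71 to 5.80 on the H2122 controls, near the 3.84 to 4.54 it had with LKB1 in A549. This left little room for a like fall in H2122, and the part of this low starting level in the difference was not tested. The values without the 3 arrays were −2.73 and −1.56 (adjusted p = 0.00809 and 0.00622). The INSL4 call was lost without A549 pBABE replicate 2, A549 LKB1 replicate 2 or 3, or any H2122 LKB1 array alone (adjusted p between 0.0511 and 0.0798), and that of NEDD9 without A549 or H2122 LKB1 replicate 1 or 3 (0.0539 to 0.0619); by source name the NEDD9 value was −0.63 (adjusted p = 0.799).

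For the other 8 genes a difference between the lines was not shown. EGR1 was at −2.03 ± 1.03 (SE), NR4A1 at −1.77 ± 0.78 and PPARGC1A at −1.75 ± 1.14 (adjusted p = 0.387, 0.296 and 0.547). NR4A2 was nearest to 0, at −0.39 with a 95% interval from −2.44 to 1.65, and turned to 0.13 without the 3 arrays.

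Other known CREB and CRTC targets gave median shifts of under 1 unit in every comparison. Of 25 measured, the test in A549 called 5 lower and 1 higher against pBABE and 3 lower and none higher against K78I, with medians of −0.42 and −0.61. There were, in H2122, 5 lower and 1 higher against pBABE and 3 lower and 1 higher against K78I, with medians of −0.28 and −0.13. Shares of all genes called with all arrays were 0.908% to 1.72% lower and 2.98% to 4.17% higher over the 4 comparisons. Of the 25, 4 are also on the serum and ERK list. With the 3 low cell cycle arrays left out, 7.93% and 5.26% of all genes were called in A549 against pBABE and K78I. In H2122 against K78I 10.1% were called, each in either direction. Without the 3 arrays the counts in A549 were 3 lower and 1 higher, and 5 lower and none higher, with medians of −0.19 and −0.22, and those in H2122 were 5 lower and 1 higher against each control.

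PDE4B, a phosphodiesterase that breaks down cyclic AMP, was lower in all 4 comparisons, at −2.18 ± 0.16 (SE) and −2.26 ± 0.16 in A549 and −1.04 ± 0.18 and −0.71 ± 0.16 in H2122 (adjusted p = 2.34e-06, 1.73e-06, 0.00293 and 0.0217). PDE4D, its relative, fell by 0.99 and 0.96 in A549 and by 1.45 against pBABE in H2122. RGS2, an inhibitor of G protein signalling, fell by 2.01 and 2.50 in A549. Some of these calls rest on single arrays: PDE4B in H2122 was lost against pBABE without pBABE replicate 2 (adjusted p = 0.0631) and against K78I without LKB1 replicate 1 or 2 or K78I replicate 2 or 3 (up to 0.126), PDE4D against K78I in A549 without LKB1 replicate 3 (0.0568), and RGS2 against pBABE without pBABE replicate 1 or 2 or LKB1 replicate 1 or 3 (up to 0.0951). With H2122 grouped by source name PDE4B there was at −0.41 and −0.06 (adjusted p = 0.663 and 0.995) and PDE4D against pBABE at −0.46 (adjusted p = 0.714), and neither A549 difference of PDE4D was called (adjusted p = 0.186 and 0.193).

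Other genes of this list were called in fewer of the 4 comparisons. In A549 against pBABE the AP-1 subunit JUNB rose by 1.19 and the liver enzyme TAT and the polyamine enzyme ODC1 fell by 0.38 and 0.55. ODC1 also fell by 0.71 against each control in H2122. There ID2, an inhibitor of bHLH transcription factors, fell by 1.55 and 1.61, the secreted glycoprotein STC1 fell by 2.60 against pBABE, and INHBA, the activin βA subunit, rose by 2.82 and 2.60 (adjusted p = 1.04e-05 and 2.6e-05). As with NEDD9, these H2122 values depend on the titles: by source name INHBA was at 1.49 and 0.68 (adjusted p = 0.486 and 0.969), and none of the H2122 calls of ODC1, ID2 and STC1 was made (adjusted p between 0.252 and 0.975). The A549 calls of TAT and ODC1 were each lost without any 1 of 12 arrays and that of JUNB without any 1 of 5, and the H2122 calls of STC1 without pBABE replicate 2 or LKB1 replicate 1 or 3, and of ODC1 without any 1 of 2 arrays against pBABE and of 3 against K78I (adjusted p up to 0.198).

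Most genes of the CREB machinery itself were not called. Among all genes 0.908% to 1.72% were called lower and 2.98% to 4.17% higher in the 4 comparisons with all arrays. Of 14 measured genes 1 rose and 1 fell in A549 against each control and in H2122 against pBABE. None was called in H2122 against K78I. Leaving out the 3 low cell cycle arrays, limma called 7.93% and 5.26% of all genes in A549 against pBABE and K78I. In H2122 against K78I it called 10.1%, each in either direction. Without the 3 arrays 1 rose and 1 fell in A549 against pBABE, 1 fell against K78I in each line, and none was called in H2122 against pBABE. The catalytic subunit of protein kinase A PRKACB rose by 0.83 and 0.70 in A549 and by 0.78 in H2122 against pBABE. With H2122 grouped by source name the last was 0.32 (adjusted p = 0.659). Neither A549 difference of PRKACB was then called (adjusted p = 0.0596 and 0.1165). The kinase SIK3 fell by 0.81 and 0.89 in A549, and the coactivator CRTC3 fell by 0.67 in H2122 against pBABE. The CRTC3 value was −0.28 without H2122 pBABE replicate 2 (adjusted p = 0.441), and its call was lost without any 1 of 12 arrays. Calls of SIK3 were lost without any 1 A549 LKB1 array or, against pBABE, without pBABE replicate 1 or 2 (up to 0.131), and those of PRKACB against K78I in A549 and against pBABE in H2122 without any 1 of 3 arrays each (up to 0.117).

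Most immediate early genes of the serum and ERK pathways did not pass the test. Over all genes it called 0.908% to 1.72% lower and 2.98% to 4.17% higher in the 4 comparisons with all arrays. Of 20 measured, 2 rose and none fell against pBABE in A549 and 1 rose and none fell against K78I, with medians of −0.11 and −0.62; in H2122 1 rose and 1 fell against pBABE and 1 fell against K78I, with medians of 0.03 and 0.16. The matricellular gene CCN2 rose by 2.25 and 1.33 in A549 and by 1.84 in H2122 against pBABE; without H2122 pBABE replicate 2 the last was not called (adjusted p = 0.151), and the call against K78I was lost without any 1 of 6 arrays (up to 0.114). MYC fell by 0.66 and 0.59 in H2122. These H2122 values depend on the titles. By source name MYC was at −0.42 and −0.12 and CCN2 against pBABE at 0.59 (adjusted p = 0.415, 0.983 and 0.722). In the fit without the 3 low cell cycle arrays, limma called 7.93% and 5.26% of all genes in A549 against pBABE and K78I. In H2122 against K78I it called 10.1%, each in either direction. Without the 3 arrays 4 rose and none fell against pBABE in A549, and 1 rose and 2 fell against K78I; in H2122 2 rose and 1 fell against pBABE, and 1 rose and 1 fell against K78I.

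The closest relatives of the 10 genes include other insulin and relaxin peptides, CREB1, PPARGC1B, other Cas proteins, and FOS and EGR paralogs. None of the 16 measured was called in any of the 4 comparisons, with medians between −0.13 and 0.07. Over all genes 3.89% to 5.77% were called in either direction. The 0 of 16 is near that share and does not set the relatives apart from all genes. After the 3 low cell cycle arrays were left out, 1 of the 16 was called lower in A549 against pBABE and 1 in H2122 against K78I. In that fit 7.93% and 5.26% of all genes were called in either direction in A549 against pBABE and K78I. In H2122 against K78I 10.1% were called. Among 16 partners and targets of PPARGC1A, the mitochondrial carrier UCP2 rose by 1.21 and 1.32 in A549, and the mitochondrial superoxide dismutase SOD2 fell by 1.24 in H2122 against pBABE. The others were not called, and the medians lay between −0.22 and −0.10. The shares of all genes given for the relatives apply to these counts as well. In A549 1 of the 16 was called higher against pBABE and none against K78I without the 3 low cell cycle arrays, and in H2122 1 was called lower against each control.

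The genes most like each member over the 17 arrays, by Pearson correlation after the mean of the line was subtracted, were MUC5B for PPARGC1A (r = 0.98), MARK2 for NR4A3 (0.98), NFIL3 for CREM (0.98), MUC13 for NR4A1 (0.97) and MSI2 for INSL4 (0.97). They were followed by KLF5 for AVPI1 (0.96), IRF2BP2 for FOS (0.96), CPS1-IT1 for NR4A2 (0.96), FSTL3 for NEDD9 (0.95) and IFRD1 for EGR1 (0.93). Each was picked as the highest of all genes, and all rest on the same arrays, the 2 high A549 controls among them, so these values are descriptions. Within H2122 alone the correlation was 0.96 for PPARGC1A with MUC5B and 0.997 for NEDD9 with FSTL3, but 0.36 for EGR1 with IFRD1. Among the 10 genes themselves the 45 pairs had r from 0.46 to 0.99 within A549, and within H2122 every pair with NEDD9 was negative, from −0.93 to −0.60.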

How the data were processed

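The authors deposited log2 levels per probe set; the submitters' processing notes name RMA and Affymetrix Expression Console 1.1. Labelling started from 130 ng of total RNA per array, per the labels' protocols. RMA makes the distributions of the arrays alike (array medians were 5.62 to 5.73), so a shift shared by most genes cannot be seen, and the lowest levels may be background. No genome build was given in the sources used.

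Of 33297 probe sets, 19181 had 1 gene symbol, 2055 several, and 12061 are unnamed here. The brightest probe set per gene gave 17958 genes; each of the 10 genes has 1. Groups follow the titles. limma 3.58.1 in R 4.3.3 (lmFit and eBayes, 6 groups, 11 residual and 3.8 prior degrees of freedom) gave each contrast, with Benjamini-Hochberg adjustment over all genes and a threshold of 0.05; the script was tested on simulated data. Replicates differed by an SD of 0.226 to 0.608 over genes.

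The 10 genes and all lists were chosen with earlier results of these data known. Named were the 10 genes, STK11, called members of each list (up to 4 a list and comparison by lowest adjusted p), and the gene most correlated with each of the 10. SIK1, BTG2, AREG, ATF1, EGR2, RLN3, BUB1B and PCNA were listed and had no probe set with that symbol alone. Alternatives were a replicate block, groups by source name, arrays left out, a filter on the dimmest 30% of genes, other normalizations, mean probe sets, another prior, array weights and a fit per line; the list counts with arrays left out were added after seeing the data.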

Additional observations from a re-analysis of the deposited data

Results flagged for a closer look

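The difference between the lines in the LKB1 effect (A549 minus H2122, against the mean of both controls) passed limma's test for 2 of the 10 genes, INSL4 (−3.00 ± 0.70, SE; adjusted p = 0.0278) and NEDD9 (−2.32 ± 0.51; adjusted p = 0.0205). Among other CREB targets it passed for PDE4B (−1.34 ± 0.20; adjusted p = 0.00194), INHBA (−2.98 ± 0.26; adjusted p = 1.95e-05) and ID2 (1.39 ± 0.26; adjusted p = 0.00802). PDE4B fell in both lines, by more in A549, INHBA rose in H2122 and ID2 fell there. The line differences of PDE4B, INHBA and ID2 were not examined under the alternatives. By source name none of their H2122 differences from a control was called by limma (adjusted p between 0.407 and 0.995).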

How the results depend on the processing

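The number of arrays limits these results, and the counts of called genes changed when control arrays were left out. The labels do not say what the replicate numbers share. Deviations of same-numbered arrays correlated from −0.644 to 0.352 in A549 and from 0.064 to 0.42 in H2122, and those of other pairs from −0.519 to 0.638 and from −0.42 to 0.127. The H2122 values hint at pairing by number there, but not every pair was over 0.1, so the numbers were not taken as pairs. With the replicate number as a block (replicate block), 5 of the 10 genes were called against pBABE in A549 (3 without it), 4 against K78I (6 without it), 1 and 0 in H2122 (1 and 1 without it). The calls not made under the block were NR4A1 and EGR1 against K78I in A549 and NEDD9 against K78I in H2122 (adjusted p = 0.0549, 0.0515 and 0.0507).

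The count of called genes among the 10 is given here with the share of all genes called by the same fit. Against pBABE in A549 it was 3 (5.5%) in the reported fit, 7 (7.93%) without the 3 low cell cycle arrays, 8 (10%) without the 2 arrays at odds with their STK11 label, 5 (5.31%) with arrays centred on their median, 8 (21.3%) with array weights, 1 (3.05%) with each line fitted alone, and 2 to 7 (2.81% to 8.46%) leaving out 1 array. Against K78I in A549 (6, 5.25%) it was 3 (3%) with H2122 grouped by source name, 3 (3.72%) without the arrays of conflicting labels, 1 (2.27%) with each line alone, and 2 to 8 (2.34% to 9.05%) leaving out 1 array. Against pBABE in H2122 (1, 5.77%) it was 0 (0.0111%) by source name, 0 (1.19%) without the conflicting arrays, 2 (5.61%) without the low cell cycle arrays, 5 (8.04%) without the STK11 arrays, 5 (5.6%) with each line alone, and 0 to 3 (2.57% to 10%) leaving out 1 array. Against K78I in H2122 (1, 3.89%) these were 0 (0%), 0 (1.11%), 2 (10.1%), 2 (5.75%) and 2 (3.71%), with 0 (3.61%) after centring, 5 (20.7%) with array weights and 0 to 1 (1.56% to 5.7%) leaving out 1 array. K78I against pBABE in A549 gave 2 (0.195%) without the STK11 arrays. The difference between lines (2, 3.6%) gave 1 (0.974%) by source name, 0 (1.16%) without the conflicting arrays, 5 (4.98%) without the STK11 arrays and 0 to 2 (1.73% to 4.84%) leaving out 1 array.

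Signs turned in these cases. NEDD9 in A549 was at 0.11 against pBABE and 0.043 against K78I without the low cell cycle arrays, and at 0.043 against K78I without the STK11 arrays; leaving out 1 array it ran from −0.40 to 0.11 and from −0.85 to 0.043. Against pBABE in H2122, EGR1 was at 0.29 by source name, 0.22 without the conflicting arrays and 0.061 without the low cell cycle arrays (−0.85 to 0.061 leaving out 1 array), INSL4 was at 0.053 without the conflicting arrays and CRTC3 at 0.071 by source name. Against K78I in H2122 by source name, INSL4 was at 0.27, NR4A2 at 0.50, PPARGC1A at 1.08, NEDD9 at −0.063, FOS at 0.33 and EGR1 at 0.22. The line difference of NR4A2 was 0.13 without the low cell cycle arrays and 0.047 with array weights (−0.77 to 0.089 leaving out 1 array). Of all gene values under the alternatives, 2031 kept their direction and side of the threshold, 227 lost the call, 59 gained it and 21 changed sign; beyond the arrays or labels left out or exchanged, the cause was not tested.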
